A study of Mus musculus with 88 samples.

Results

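The transcriptome of 14 APP/E3/Trem2ko mice was compared with that of 8 E3/Trem2ko mice, so that the 2 groups differ in the amyloid-producing transgenes and share the knockout of Trem2 and the human APOE3 gene. The 22 mice were taken from the 88 mice of the series by the genotype in their labels. Of the 14451 genes in the expression table, the 14086 with a mean of at least 1 CPM (a gene's share of the counted reads of its library, in parts per 1000000) over all mice were tested.

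Every mouse gave 1 library of anterior (frontal) cortex RNA, so each value below is 1 animal. Both groups were homozygous for a targeted replacement of mouse Apoe by human APOE3 and lacked functional Trem2 (the Trem2 em2Adiuj knockout), on a C57BL/6 background. APP/E3/Trem2ko mice also carried the APP/PS1dE9 transgenes, which include a human APP with the Swedish mutation and are expressed from the mouse prion protein promoter. The study's methods name this line, while the growth protocol in the labels names APP23, another line with Swedish-mutant human APP, and the reading of the App and Prnp values depends on which line was used. E3/Trem2ko mice were littermates without these transgenes. The mice were 6.5 months old on average, 7 females and 7 males with the transgenes and 4 females and 4 males without. They had gone through behavioural testing, including fear conditioning with a foot shock, and the tissue was taken 2 days later from perfused brains. The other 6 genotypes of the series combine APOE3 or APOE4, the transgenes and intact or deleted Trem2 in the same way.

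Cleavage of APP by beta-secretase and by gamma-secretase releases amyloid-beta, which aggregates into plaques in the cortex of APP/PS1dE9 mice. Trem2 is a lipid-sensing receptor of microglia that signals through Tyrobp, and without it microglia respond poorly to plaques and do not fully enter the disease-associated (DAM) state. Apolipoprotein E, made mainly by astrocytes in brain, carries cholesterol and other lipids between cells and binds Trem2.

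The App and Prnp promoters are shown because App and Prnp had the smallest p-values of all genes and the Prnp promoter drives the transgenes. Each stretch runs from 250 bases before to 50 bases after the start of the gene (RefSeq, GRCm38.p6), with every GC box (GGGCGG on either strand), the letters bound by Sp1-type factors, in capitals. The Prnp stretch lies at chr2:131909678-131909977 on the plus strand and holds 3 GC boxes, and the App stretch lies at chr16:85173658-85173957 on the minus strand and holds 1. These letters occur in 35.9% of the 27025 promoters of the same length.
Prnp promoter: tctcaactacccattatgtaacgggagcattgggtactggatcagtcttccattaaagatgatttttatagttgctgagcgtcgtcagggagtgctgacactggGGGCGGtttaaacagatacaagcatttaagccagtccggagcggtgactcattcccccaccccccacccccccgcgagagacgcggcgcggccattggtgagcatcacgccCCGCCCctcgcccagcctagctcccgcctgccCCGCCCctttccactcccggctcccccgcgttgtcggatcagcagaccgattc
App promoter: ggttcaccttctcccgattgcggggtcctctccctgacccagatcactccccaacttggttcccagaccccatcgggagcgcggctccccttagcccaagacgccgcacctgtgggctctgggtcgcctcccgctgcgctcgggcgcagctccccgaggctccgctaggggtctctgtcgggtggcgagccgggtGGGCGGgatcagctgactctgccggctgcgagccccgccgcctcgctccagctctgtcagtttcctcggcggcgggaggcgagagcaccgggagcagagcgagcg

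Between the groups, 21 genes (0.149% of those tested) were called, that is had a Benjamini-Hochberg adjusted p under 0.05 in a limma model of the 8 genotypes and sex over all 88 mice. 10 genes (0.0710%) rose and 11 (0.0781%) fell in APP/E3/Trem2ko mice. The edgeR quasi-likelihood test on recovered reads called 23 higher and 15 lower, and all 21 genes were among them. The values of the groups did not overlap at all for 5 genes higher with the transgenes (0.0355%), App, Prnp, Arl6ip1, Itm2c and Ctsd, and for 0 genes lower (0% of genes). Without regard to multiple testing, 900 genes (6.39%) were higher and 1454 (10.3%) lower at an unadjusted p under 0.05 in limma. These shares are the background for the gene lists below. With TMM scaling of the CPM the numbers were 1219 and 1214, so the excess of lower genes depended on the scaling. The median log2 fold change of all genes was -0.01, and with TMM scaling of the CPM it was 0.01.

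App, the amyloid precursor protein gene, stood at 4983, 5888 and 6825 CPM (lowest, median and highest of 14 APP/E3/Trem2ko mice) and at 2033, 2374 and 2596 CPM in the 8 E3/Trem2ko mice. All 14 transgenic mice were above the highest mouse without the transgenes. The log2 fold change was 1.30 (SE 0.06, limma, Benjamini-Hochberg adjusted p = 8.52e-30), a 2.47-fold difference of the fitted values. Alignment used the mouse genome, which human APP reads can match in part, so the value is a count of reads that fell on App and not a measure of human APP RNA.

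Prnp, the prion protein gene, stood at 2341, 2967 and 3535 CPM with the transgenes and at 794, 833 and 971 CPM without. Again the groups did not overlap. Its log2 fold change was 1.79 (SE 0.07, limma adjusted p = 3.14e-39), larger than that of App. Where the additional reads lie along Prnp was not tested. The transgene vector contains Prnp sequence, and reads from it and from the mouse gene cannot be told apart in a table of counts per gene.

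Trem2 itself was 1.46, 2.19 and 3.94 CPM in APP/E3/Trem2ko mice and 1.12, 1.81 and 3.30 CPM in E3/Trem2ko mice. These levels lie below all 14 APP/E3 mice, whose lowest was 10.3 CPM, and all 8 E3 mice, whose lowest was 10.6 CPM. All 22 libraries therefore match their Trem2ko label. The groups overlapped, and the difference of 0.23 on the log2 scale (SE 0.16, limma adjusted p = 0.486) did not pass the test.

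**Figure D1:**
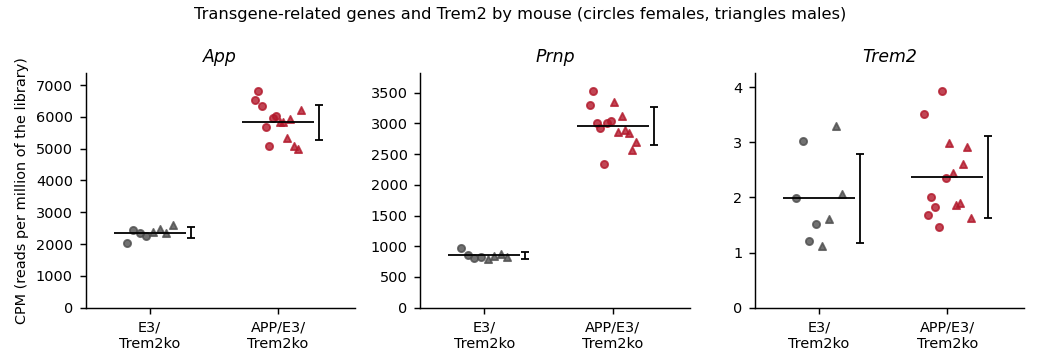
App, Prnp and Trem2 in CPM in each mouse (circles females, triangles males), with the mean as a horizontal line and the SD as a bar, for 8 E3/Trem2ko and 14 APP/E3/Trem2ko mice. App and Prnp separate the groups without overlap, while Trem2 overlaps.

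Reads that fell on both genes were also higher with the same transgenes in the other backgrounds. App differed by 1.17 on the log2 scale between APP/E3 and E3 mice, by 1.19 between APP/E4/Trem2ko and E4/Trem2ko mice and by 1.23 between APP/E4 and E4 mice. For Prnp the values in the same order were 1.39, 1.67 and 1.73. The Prnp change in Trem2ko mice with APOE3 was thus 0.40 larger on the log2 scale than with intact Trem2 (SE 0.09, limma unadjusted p = 4.18e-05). This was the smallest p of all genes in that test, but the difference did not pass adjustment over all genes (limma adjusted p = 0.589). The median Prnp level was 1042 CPM in E3 mice and 833 CPM in E3/Trem2ko mice, and with the transgenes 2857 and 2967 CPM, so more of the difference lay between the groups without the transgenes. Among these, E4 mice had a median of 757 CPM and E4/Trem2ko mice 809 CPM, so E3 mice stood highest.

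Among the 14 APP/E3/Trem2ko mice, App and Prnp levels varied together (Pearson r = 0.690, permutation p = 0.00628; Spearman rho = 0.609, permutation p = 0.0233). This was the 1 relation computed across mice, so the p-values need no adjustment. Without the 2 mice farthest from the median of App, r was 0.483 (permutation p = 0.111, n = 12), so the call rests on those mice, although leaving out extreme App values also narrows the range over which r is taken. In the 9 transgenic mice without high Ttr (defined below) r was 0.721 (permutation p = 0.0295).

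Beside App and Prnp, 19 genes were called, and their changes were small, from -0.64 to 0.81 on the log2 scale. The largest increase belonged to Pla2g5, a secreted phospholipase A2 that releases fatty acids from phospholipids. It stood at 1.57, 2.68 and 6.07 CPM with the transgenes and 0.820, 1.47 and 2.35 CPM without, and 9 of 14 mice lay above the highest E3/Trem2ko mouse. The log2 fold change was 0.81 (SE 0.16, limma adjusted p = 0.00886). The highest values, 5.08, 5.33 and 6.07 CPM, were in APP/E3/Trem2ko replicates 3, 6 and 4. These mice also had the highest Ttr, a choroid plexus gene (2875, 2187 and 1758 CPM), and the next mouse had 3.15 CPM of Pla2g5. The gene was not called with only the 2 genotypes fitted, nor without the mice high in Ttr or Drd2 (defined below). The part of choroid plexus RNA in its change was not tested.

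2 called genes with higher levels encode membrane proteins of endoplasmic reticulum and secretory pathway and did not overlap between groups. Arl6ip1, which shapes endoplasmic reticulum tubules, was 321, 360 and 421 CPM against 291, 308 and 315 CPM, a log2 fold change of 0.23 (SE 0.05, limma adjusted p = 0.0233). Itm2c (BRI3), a transmembrane protein that binds APP and limits its processing, was 871, 980 and 1135 CPM against 724, 795 and 857 CPM, a change of 0.28 (SE 0.07, limma adjusted p = 0.0484). The Itm2c median was 960 CPM in E3, 939 CPM in E4 and 845 CPM in E4/Trem2ko mice, so the E3/Trem2ko group had the lowest median of the 4 genotypes without transgenes.

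Il10rb, a subunit of the receptor for interleukin 10 and related cytokines, was 7.24, 8.88 and 10.6 CPM against 4.39, 6.82 and 8.25 CPM. 12 of 14 transgenic mice exceeded all others, with a log2 fold change of 0.43 (SE 0.10, limma adjusted p = 0.0484). Il10rb shares chromosome 16 with App, 16 being 1 of 7 chromosomes that held 2 called genes each.

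The remaining genes that rose were Pomk (0.25), a kinase that acts on the sugar chain of dystroglycan, Prep (0.27), a prolyl endopeptidase that cleaves short peptides, Ano10 (0.30), a member of the anoctamin family, and the noncoding transcript 2210408F21Rik (0.35). Between 9 and 10 of the 14 transgenic mice lay above every E3/Trem2ko mouse for each of these. Their adjusted p-values in limma ran from 0.0233 to 0.0457.

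Several of the 11 genes that fell encode proteins acting on DNA or chromatin. Tet2, a dioxygenase that oxidises 5-methylcytosine, was 18.3, 27.8 and 35.2 CPM with the transgenes and 29.7, 40.0 and 49.3 CPM without. All 14 transgenic mice were below the E3/Trem2ko median and 10 below the lowest mouse, with a log2 fold change of -0.53 (SE 0.11, limma adjusted p = 0.0233). Mbd4, a DNA glycosylase that removes mismatched bases at CpG sites, was 5.84, 7.26 and 10.3 CPM against 8.31, 10.97 and 13.5 CPM, a change of -0.48 (SE 0.11, limma adjusted p = 0.0343).

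Ercc6 (CSB), which starts transcription-coupled repair, was 20.8, 24.7 and 26.6 CPM against 25.7, 28.8 and 33.7 CPM. It was below the lowest E3/Trem2ko mouse in 13 of 14 mice, and its change was -0.27 (SE 0.06, limma adjusted p = 0.0343). Baz1b, a subunit of chromatin remodelling complexes, was 113, 128 and 149 CPM against 132, 152.03 and 182 CPM, a change of -0.24 (SE 0.06, limma adjusted p = 0.0484). No list of such genes was tested, and these 4 were put together after their values were seen. Over 13894 genes the log2 fold change had a Spearman rho of -0.24 with exon length. The part of length in the genes that fell was not tested.

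Farp1, a guanine nucleotide exchange factor found at synapses, was 69.5, 80.2 and 93.8 CPM against 90.5, 101 and 121 CPM. 13 of 14 transgenic mice lay below the lowest E3/Trem2ko mouse, and the change was -0.33 (SE 0.07, limma adjusted p = 0.0233). Reads on Farp1 could be shared with B930095G15Rik, which overlaps it over 5266 bases on the same strand and had a change of -0.30 (limma adjusted p = 0.114).

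2900079G21Rik, a long intergenic noncoding RNA of chromosome 9 (112234277 to 112348925, GRCm38), was 5.07, 8.66 and 10.3 CPM against 9.38, 11.4 and 13.8 CPM. 10 of 14 mice were below every E3/Trem2ko mouse, with a log2 fold change of -0.45 (SE 0.10, limma adjusted p = 0.0343). It was the gene other than App and Prnp whose change was most alike in the other backgrounds, at -0.42 in APP/E3, -0.52 in APP/E4/Trem2ko and -0.43 in APP/E4 mice against their counterparts, and the second of these also passed the test (limma adjusted p = 0.00568). Its median was 8.65, 8.66, 7.87 and 7.94 CPM in the 4 genotypes with transgenes and 11.9, 11.4, 10.5 and 10.9 CPM in those without.

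2900079G21Rik overlaps Arpp21, a gene of neuronal RNA-binding proteins on the opposite strand, over 1662 bases, and whether the counting used strand is not stated in the sources used here. Arpp21 was 225, 270 and 514 CPM against 314, 336 and 531 CPM, a difference of -0.32 that did not pass the test (limma adjusted p = 0.351). Ubp1, a transcription factor gene lying on the same chromosome at 113930934 to 113977202, was -0.36 (limma adjusted p = 0.0792). Arpp21 and Ubp1 were chosen after their values were seen.

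The other genes that fell serve varied roles. Prkd2, a protein kinase D, had a change of -0.64, Kifc1, a minus-end directed kinesin, -0.61, and Tbc1d1, a Rab GTPase-activating protein, -0.56. Eml4, a microtubule-associated protein, had -0.25, and Tars, the cytosolic threonyl-tRNA synthetase, -0.24. Kifc1 was at low levels, with a median of 0.982 against 1.70 CPM. The adjusted p-values of these 5 genes in limma ran from 0.0258 to 0.0484.

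Of the 19 genes beside App and Prnp, few differed between the other transgenic mice and their counterparts. The 19 were picked by their p in the present comparison, so smaller changes elsewhere follow in part from that choice. In APP/E3 against E3, 3 were past an unadjusted p of 0.05 in the same direction (Farp1, 2900079G21Rik and Ercc6), where 1.34% of all genes were past it upward and 4.65% downward. In APP/E4/Trem2ko against E4/Trem2ko there were 4 (Pla2g5, Tbc1d1, 2900079G21Rik and Itm2c), where these shares were 11.3% and 7.23%. In APP/E4 against E4 there were 2 (Arl6ip1 and 2900079G21Rik), where they were 3.04% and 6.25%. The direction was the same for 16, 16 and 14 of the 19 genes.

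**Figure D2:**
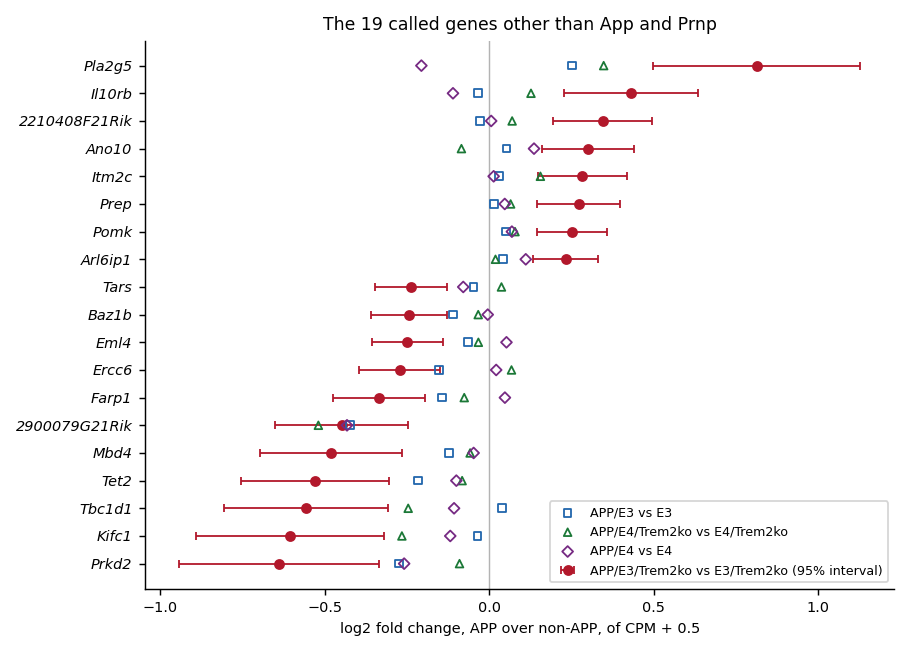
Log2 fold change of the 19 called genes other than App and Prnp in APP/E3/Trem2ko against E3/Trem2ko mice (filled circles with 95% intervals) and in the other 3 transgene comparisons (open symbols). The open symbols lie nearer to 0 for most genes, which follows in part from picking the genes by the filled circles. 2900079G21Rik has all 4 values between -0.52 and -0.42.

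A test of the difference between backgrounds called 0 genes (0%) for the Trem2ko effect on the transgene response with APOE3, with limma and with edgeR alike, while 506 genes (3.59%) were higher and 398 (2.83%) lower at an unadjusted p under 0.05. It also called 0 genes (0%) between APOE3 and APOE4 among Trem2ko mice, with 455 (3.23%) higher and 960 (6.82%) lower at an unadjusted p under 0.05. DESeq2 called 1 and 2 genes in these tests. Hence no called gene was shown to respond only in Trem2ko mice with APOE3.

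The smallest p-values after Prnp in the first test belonged to Perp, a membrane protein of cell junctions and apoptosis, with a difference of 0.96, and Ptpn18, a protein tyrosine phosphatase, with 0.63 (limma adjusted p = 0.764 for both). Ankrd44, an ankyrin repeat protein, had a difference of -0.56. In the second test Rasd1, a Ras-like protein induced by glucocorticoids, differed by -1.39 and Map3k19 by -1.19, while Insig1, a sterol-dependent brake on SREBP processing, differed by 0.49 (limma adjusted p = 0.194 for all 3). Among called genes, Ercc6 (-0.34) and Ano10 (0.39) were within the 10 smallest p-values of the second test, and Smad3, a mediator of TGF-beta signals, differed by -0.50. None of these differences passed adjustment in limma with all mice. Rasd1 passed in DESeq2 (-1.70, adjusted p = 0.0250) and, in limma, without E3/Trem2ko replicate 8 (adjusted p = 0.0465), and Map3k19 passed in limma without E3/Trem2ko replicate 7 or 8 (adjusted p = 0.04998 and 0.0465).

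The transgene effect was also compared between females and males of the 2 genotypes. In females 6 genes were called higher and 11 lower, and in males 2 and 0, which were App and Prnp. The difference between the sexes called 0 genes (0%) in limma, with 672 (4.77%) at an unadjusted p under 0.05, and 0 with TMM scaling, so a difference was not shown. The smallest p-values were those of Pskh1 (0.73), Map3k19 (-1.49), the neural progenitor filament gene Nes (-0.99), Fam167a (-1.30) and Dio2, the enzyme that activates thyroid hormone in astrocytes (-1.38), all at an adjusted p of 0.541 in limma. At an unadjusted p under 0.05, 5.54% of all genes were higher and 6.58% lower with the transgenes in females, and 2.85% and 5.63% in males.

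The call counts depended on single mice. With each of the 22 mice left out in turn, the number of called genes ran from 3 to 91. It was 3 without APP/E3/Trem2ko replicate 8, 4 without E3/Trem2ko replicate 3 and 7 to 11 without APP/E3/Trem2ko replicates 1, 9, 10 and 12 or E3/Trem2ko replicates 2, 4 and 5. It was 91 without E3/Trem2ko replicate 1, 69 without APP/E3/Trem2ko replicate 5 or 13 and 37 to 50 without APP/E3/Trem2ko replicates 3, 7 and 14 or E3/Trem2ko replicate 7. Only App and Prnp were called in all 22 refits. All 21 genes kept their direction in every fit.

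**Figure D3:**
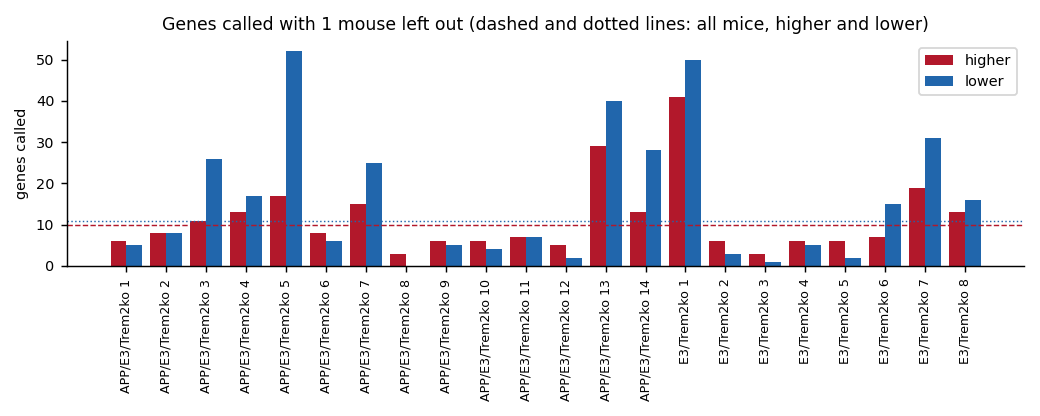
Number of genes called higher (red) and lower (blue) in APP/E3/Trem2ko against E3/Trem2ko mice after leaving out 1 mouse, named on the horizontal axis. The bars range from 3 genes in all to 91, against 10 higher and 11 lower with all mice (dashed and dotted lines).

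Some libraries contained RNA of tissues next to cortex. Ttr, the transthyretin gene of choroid plexus, was at least 100 CPM in 5 of 14 APP/E3/Trem2ko mice (283 to 2875 CPM) and in 0 of 8 E3/Trem2ko mice (0.625 to 84.9 CPM). Drd2, a dopamine receptor gene of striatal neurons, was at least 10 CPM in 2 APP/E3/Trem2ko mice (14.5 and 71.1 CPM) and in 0 E3/Trem2ko mice (0.439 to 3.08 CPM). Ttr and Drd2 were chosen after their values were seen. Cortical neuron and glial markers were present in every library (Slc17a7 at 906 CPM or more), the keratin genes Krt13 and Krt4 were at or near 0, and libraries held 45.2 to 57.6 M counted reads (M, in units of 1000000).

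The summed level of 4 choroid plexus markers (Ttr, Kl, Kcnj13 and Clic6) was 5.68, 40.6 and 3046 CPM with the transgenes and 3.03, 23.8 and 101 CPM without. The difference of means, 617 CPM, was within the spread of the mice (exact two-sided permutation test over 319770 splits, p = 0.134). The sum of 4 striatal markers (Drd1, Drd2, Adora2a and Ppp1r1b) was 99.4, 128 and 1363 CPM against 89.1, 108 and 185 CPM (exact permutation p = 0.232). The part of these tissues in the results below was not tested beyond leaving out the mice that hold them: without the mice high in Ttr, 34 genes were called higher and 34 lower, among them 19 of the 21, and without the mice high in Drd2 17 and 17, among them 15 of the 21. These refits left out all such mice of the 8 genotypes, 9 of 88 for Ttr (5 of them APP/E3/Trem2ko) and 21 for Drd2 (2 of them APP/E3/Trem2ko), so the counts also reflect the loss of mice outside the 2 groups.

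Of 12 tested choroid plexus genes, 6 were higher and 0 lower at an unadjusted p under 0.05, with a median log2 fold change of 0.94. 1500015O10Rik (augurin) was 1.33 (SE 0.42, limma adjusted p = 0.114) and Kl, the klotho gene, 1.18 (limma adjusted p = 0.162). Without the mice high in Ttr, 0 members were past an unadjusted p of 0.05 in either direction by limma, and the median was -0.06. All 5 mice left out of this comparison were transgenic and were chosen by a choroid plexus gene, so this fall follows from the choice. All 16 striatal genes had values above 0 (median 0.53), of which 0 were past an unadjusted p of 0.05. In leptomeninges 1 of 14 genes was higher, Igfbp2, at 24.1, 39.3 and 128 CPM against 12.3, 21.3 and 52.6 CPM (0.86, SE 0.22, limma adjusted p = 0.0699). Its highest values, 75.6 to 128 CPM, were in APP/E3/Trem2ko replicates 3, 4, 6 and 14, which were high in Ttr. The next transgenic mouse had 47.8 CPM. The median of this list was 0.21, and 0.11 without the mice high in Ttr.

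No gene list had a called member other than App, Prnp and Itm2c, so the lists are described by the number of members past an unadjusted p of 0.05, which 6.39% of all genes reached upward and 10.3% downward. In bulk tissue a lower level from fewer cells of a type and one from less RNA per cell cannot be told apart. Members of a list can vary together from mouse to mouse, so their counts are not counts of independent results.

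Immediate early genes, which neurons transcribe within minutes of strong activity, were lower in the transgenic mice. The mean over the 21 members of log2(CPM + 0.5) was 4.24, 5.56 and 6.98 in the APP/E3/Trem2ko mice and 5.68, 6.39 and 7.35 in the E3/Trem2ko mice, and 7 of the 14 were below the lowest of the 8. Of the members, 0 were higher and 12 lower at an unadjusted p under 0.05, and 20 of the 21 had a negative log2 fold change. The median was -0.87, against -0.01 over all genes. No member passed adjustment over all genes.

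Promoters of Fosb and Fos are shown because both are targets of the activity-dependent factor CREB. The core TGACG of its binding sequence (either strand) is in capitals, in 300 bases cut as above. It occurs in 10 of the 15 members that have a promoter in the RefSeq set and in 21.02% of all promoters, and the GC box occurs in 12 of the 15. The Fosb stretch lies at chr7:19309996-19310295 on the minus strand with 1 match, and the Fos stretch at chr12:85473640-85473939 on the plus strand with 2. A match is a description of the letters alone.
Fosb promoter: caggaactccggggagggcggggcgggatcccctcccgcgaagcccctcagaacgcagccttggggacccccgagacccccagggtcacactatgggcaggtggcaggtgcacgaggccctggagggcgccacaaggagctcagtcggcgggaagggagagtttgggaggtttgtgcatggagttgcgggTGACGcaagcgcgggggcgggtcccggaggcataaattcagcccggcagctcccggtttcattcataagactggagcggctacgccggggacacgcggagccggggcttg
Fos promoter: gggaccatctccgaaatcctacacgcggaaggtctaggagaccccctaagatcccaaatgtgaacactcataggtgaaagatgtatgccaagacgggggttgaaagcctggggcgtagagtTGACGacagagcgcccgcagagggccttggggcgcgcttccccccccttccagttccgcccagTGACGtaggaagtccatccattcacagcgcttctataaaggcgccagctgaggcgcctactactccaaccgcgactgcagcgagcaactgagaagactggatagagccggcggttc

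Fosb, a subunit of the AP-1 transcription factor, was 13.3, 39.2 and 81.8 CPM with the transgenes and 54.3, 75.6 and 135 CPM without. 8 of 14 transgenic mice lay below the lowest E3/Trem2ko mouse, and the log2 fold change was -1.16 (SE 0.33, limma adjusted p = 0.0840). Dusp4, a phosphatase that switches off ERK signalling, was 6.09, 14.3 and 30.6 CPM against 19.1, 30.6 and 43.3 CPM, with 8 of 14 mice below the lowest and a value of -0.96 (SE 0.26, limma adjusted p = 0.0809). With 2 surrogate variables in the model, Fosb and Dusp4 passed the test.

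Fos was 5.24, 31.6 and 148 CPM against 25.5, 68.2 and 270 CPM, a log2 fold change of -1.43 (SE 0.53, limma adjusted p = 0.165). Fosl2 had -1.07 (limma adjusted p = 0.114), the synaptic plasticity gene Arc -1.24 (0.218), the neuronal activity-dependent factor Npas4 -1.19 (0.197), Egr2 -1.37 (0.233) and the orphan nuclear receptor Nr4a1 -0.98 (0.244), the last number of each being the adjusted p in limma. Arc, Npas4, Egr2 and Nr4a1 were named after their values were seen. For each of these 6 genes the lowest values were in transgenic mice, and the groups overlapped.

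The E3/Trem2ko mice had the highest median of the 8 genotypes for Fosb, Dusp4 and Fos. That of Fosb was 75.6 CPM in E3/Trem2ko against 31.0 CPM in E3, 24.99 CPM in E4 and 43.0 CPM in E4/Trem2ko mice, and 39.2, 29.2, 18.2 and 19.2 CPM in APP/E3/Trem2ko, APP/E3, APP/E4 and APP/E4/Trem2ko mice. Dusp4 showed the same order at the top, with 30.6 CPM in E3/Trem2ko and 19.7 CPM in E4/Trem2ko mice and between 11.4 and 14.3 CPM in the 6 other genotypes.

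The transgene comparison with intact Trem2 and APOE3 had the opposite median for this list, 0.34. At an unadjusted p under 0.05, 2 members were higher and 0 lower there (1.34% and 4.65% of all genes). In APP/E4/Trem2ko against E4/Trem2ko mice the median was -0.65 with 12 of 21 lower (7.23% of all genes), and in APP/E4 against E4 mice -0.40 with 0 lower. The test of the difference by Trem2 with APOE3 had 14 of 21 members lower at an unadjusted p under 0.05 (median -1.23) where 2.83% of all genes were, and 0 after adjustment over all genes. These members are not independent: Fos, Arc, Egr2 and Nr4a1, for example, were all highest in E3/Trem2ko replicate 7. In females 6 members were lower and 0 higher (median -0.82), and in males 2 and 1 (median -0.76). Of all genes, 6.58% were lower and 5.54% higher in females, and 5.63% and 2.85% in males. Without the mice high in Ttr, 17 of 21 were lower (median -0.995), without those high in Drd2 8 (-0.68) and without either 6 (-0.77). Over all 14086 genes, 1495, 1606 and 1709 were lower at this p in these refits. With single mice left out between 5 (without E3/Trem2ko replicate 7) and 18 were lower, the median running from -1.01 to -0.67.

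Genes of the circadian clock went the same way in part. Of 16 members, 0 were higher and 5 lower at an unadjusted p under 0.05, with a median of -0.15, and without E3/Trem2ko replicate 3 only 2 were lower. Per2 was 24.2, 36.1 and 59.2 CPM against 31.7, 64.3 and 92.8 CPM, a log2 fold change of -0.68 (SE 0.20, limma adjusted p = 0.0982), which was -1.11 in females and -0.25 in males. Per1, a clock gene that is also an activity-responsive gene, was -0.48 and Cry1, a repressor of the clock, -0.38 (limma adjusted p = 0.230 and 0.114). The hour of tissue collection is not given in the sources used here.

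Genes of the unfolded protein and integrated stress response had 0 of 16 higher and 4 lower (median -0.15), with Atf3 at -0.59 and Creld2 at -0.29 (limma adjusted p = 0.240 and 0.253). Atf3, a stress-induced transcription factor, is also induced by neuronal activity. The number lower ran from 0 without E3/Trem2ko replicate 3 to 7 without E3/Trem2ko replicate 8.

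Genes of cholesterol synthesis, which SREBP-2 drives when sterols are low in a cell, were higher. All 19 members had a log2 fold change above 0, 9 with an unadjusted p under 0.05 and 0 lower, and the median was 0.17.

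Sqle, squalene epoxidase, was 77.0, 98.0 and 113 CPM with the transgenes and 68.0, 74.9 and 101 CPM without, a log2 fold change of 0.30 (SE 0.08, limma adjusted p = 0.0680). Stard4, a carrier of cholesterol between membranes, was 27.9, 36.3 and 44.4 CPM against 20.4, 29.4 and 34.1 CPM, a value of 0.35 (limma adjusted p = 0.0809). Along the pathway, the values were 0.24 for Hmgcs1, 0.24 for Fdft1, the first enzyme committed to sterols, 0.32 for Nsdhl and 0.27 for Insig1. Of these Fdft1 separated the groups most, since 11 of 14 transgenic mice lay above the highest E3/Trem2ko mouse. Hmgcs1, Nsdhl and Fdft1 were named after their values were seen.

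Cholesterol genes were also higher with the transgenes elsewhere. The list median was 0.15 in APP/E3 against E3, 0.07 in APP/E4/Trem2ko against E4/Trem2ko and 0.24 in APP/E4 against E4. In the same order, 8, 6 and 11 of 19 members were higher at an unadjusted p under 0.05 and 0, 1 and 0 lower. Of all genes, 1.34%, 11.3% and 3.04% were higher and 4.65%, 7.23% and 6.25% lower at this p. In males alone 9 members were higher (2.85% of all genes) and in females 3 (5.54%). With each mouse left out, between 7 and 9 members were higher at this p.

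**Figure D4:**
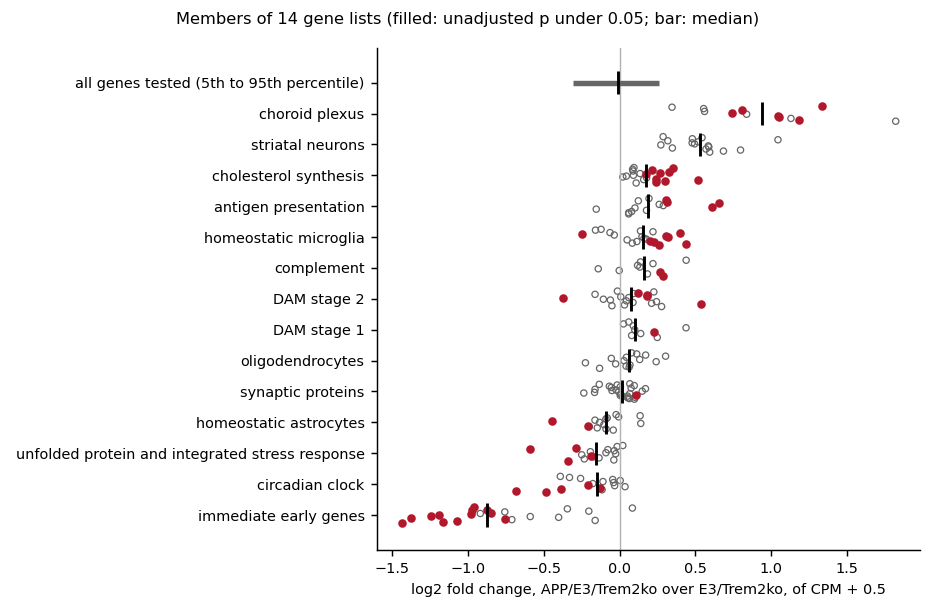
Log2 fold change of each member of 14 gene lists in APP/E3/Trem2ko against E3/Trem2ko mice (filled: unadjusted p under 0.05), with the median as a bar, below the median and the middle 90% of all genes tested. Immediate early genes lie mostly left of 0 (median -0.87) and all 19 cholesterol synthesis genes lie right of it (median 0.17).

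Some microglial genes were higher by small amounts, on the Trem2ko background that both groups share. Of 20 genes of homeostatic microglia, 15 had a log2 fold change above 0 and 5 below, 7 were higher and 1 lower at an unadjusted p under 0.05 (median 0.15), and 0 passed adjustment in limma. In females 1 was higher and 1 lower (median 0.05), and in males 6 and 0 (median 0.24). Of all genes, 5.54% were higher and 6.58% lower in females, and 2.85% and 5.63% in males. Slc2a5, a fructose transporter of microglia, was 4.73, 6.68 and 8.15 CPM against 3.72, 4.805 and 7.88 CPM, a log2 fold change of 0.40 (SE 0.12, limma adjusted p = 0.0982). P2ry13, a purinergic receptor, was 8.46, 11.5 and 14.6 CPM against 5.51, 8.84 and 11.3 CPM, a value of 0.44 (SE 0.14, limma adjusted p = 0.109).

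Olfml3, a secreted olfactomedin-like protein, was 0.31 (limma adjusted p = 0.162). Gpr34, Cx3cr1 and P2ry12, receptors by which resting microglia sense their surroundings, were 0.32, 0.23 and 0.26, and Mertk, a receptor for engulfing dead cells, was the 1 member lower, at -0.25. These 4 genes were named after their values were seen. Without the mice high in Ttr, 10 of the 20 list members were higher and 0 lower (median 0.23), without those high in Drd2 4 and 1 (0.13) and without either 8 and 0 (0.22). Over all 14086 genes, 1051, 881 and 1032 were higher at an unadjusted p under 0.05 in these refits. With single mice left out between 3 and 9 were higher, the fewest without E3/Trem2ko replicate 3 (3) and replicate 5 (4).

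Among single microglial markers, the growth factor receptor gene Csf1r was 79.8, 93.7 and 110 CPM with the transgenes and 74.8, 85.1 and 112 CPM without. Tmem119 was 18.5, 26.0 and 33.8 CPM against 20.6, 23.8 and 29.0 CPM, and Cx3cr1 51.1, 60.9 and 70.0 CPM against 41.9, 51.7 and 79.9 CPM. The groups overlapped for each of these markers, of which Tmem119 and Csf1r were named after their values were seen. The sum of these 3 and P2ry12, a set chosen after seeing the data, was 183, 209 and 234 CPM with the transgenes and 159, 183 and 257 CPM without. The difference of means was 20.7 CPM (exact two-sided permutation p = 0.0495, Benjamini-Hochberg adjusted over the 3 marker sums 0.149), and 28.9 CPM without the mice high in Ttr (exact permutation p = 0.0216). The part of the number of microglia in the list was not tested.

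Disease-associated microglial genes were counted in the same way, and their lists were not tested against the homeostatic one. In the first, Trem2-independent stage 1 of 9 genes was higher (median 0.10), and in the second stage 4 of 20 tested genes were higher and 1 lower (median 0.08). The 1 gene of the first was Ctsd, cathepsin D, at 312, 334 and 383 CPM against 277, 291 and 305 CPM, without overlap, a log2 fold change of 0.23 (SE 0.07, limma adjusted p = 0.0958). In the second stage the chemokine gene Ccl6 was 0.498, 0.958 and 1.52 CPM against 0.139, 0.463 and 0.820 CPM (0.54, SE 0.16, limma adjusted p = 0.0898), and the adhesion gene Cadm1, which neurons also express, was -0.37 (limma adjusted p = 0.0797).

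For complement 2 of 10 genes were higher and 0 lower (median 0.16), with C1qa at 0.28 and C1qc at 0.27, subunits of the recognition protein of the classical pathway (limma adjusted p = 0.158 and 0.187). For antigen presentation 4 of 14 were higher (median 0.19), among them Cd74, the invariant chain of MHC class II, at 0.65 and the immunoproteasome subunit Psmb8 at 0.31 (limma adjusted p = 0.253 and 0.205), but without E3/Trem2ko replicate 3 the number was 0. For the interferon response 3 of 16 were higher and 0 lower (median 0.06). Ifi27, an interferon-induced protein of mitochondria, was 15.9, 25.3 and 31.8 CPM against 16.6, 19.3 and 22.5 CPM, with 11 of 14 mice above the highest E3/Trem2ko mouse (0.36, SE 0.10, limma adjusted p = 0.0797), and passed the test with TMM scaling and in edgeR and DESeq2. Bst2, an antiviral membrane protein, was 0.48 (limma adjusted p = 0.120).

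Few astrocyte genes were past this p. Of 11 reactive genes 2 were higher, the hyaluronan receptor gene Cd44 at 1.28, 4.28 and 11.9 CPM against 0.640, 1.79 and 9.35 CPM (0.91, limma adjusted p = 0.114) and the serpin gene Serpina3n at 0.60 (limma adjusted p = 0.227). The list as a whole was mixed: 6 of the 11 had a log2 fold change above 0 and 5 below (median 0.05), and 0 were lower at this p. Of 15 homeostatic genes 2 were lower, a share near that of all genes (10.3%), and 0 higher (median -0.09), the gap junction gene Gjb6 at -0.45 and the folate enzyme gene Aldh1l1 at -0.21 (limma adjusted p = 0.175 and 0.243). In females 7 of the 15 were lower (6.58% of all genes) with a median of -0.28, and in males 0 (5.63%) with a median of 0.05. The difference between the sexes passed the test for 0 genes.

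**Figure D5:**
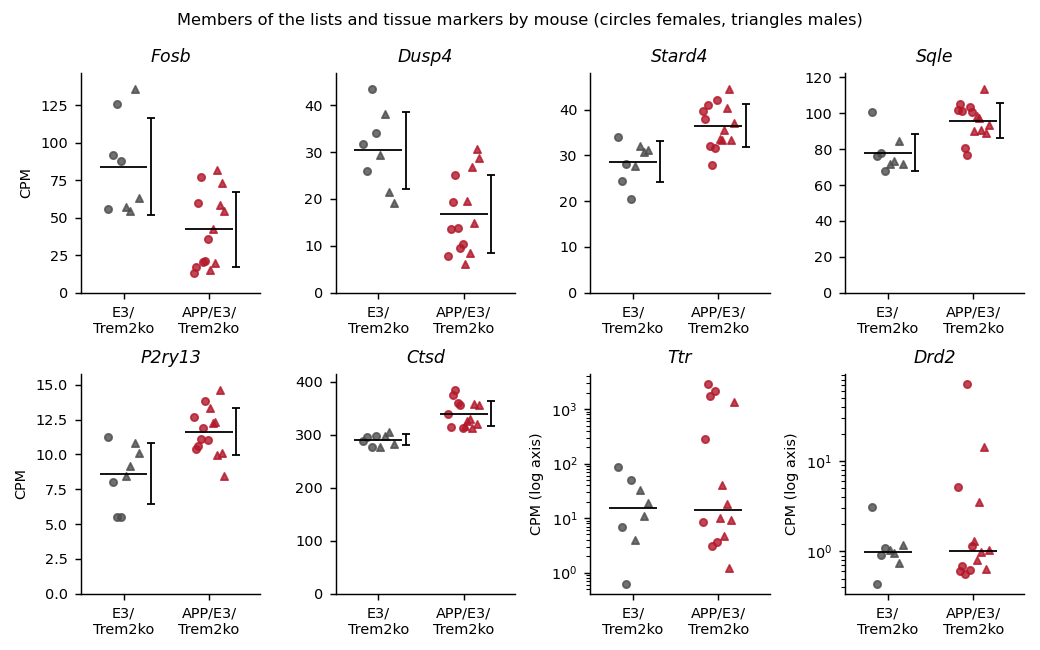
CPM of Fosb, Dusp4, Stard4, Sqle, P2ry13, Ctsd, Ttr and Drd2 in each mouse (circles females, triangles males), with the mean and SD, or the median on the 2 log axes. Fosb and Dusp4 have 8 of 14 APP/E3/Trem2ko mice below every E3/Trem2ko mouse, Ctsd separates the groups, and Ttr and Drd2 are high in 5 and 2 transgenic mice.

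Genes of APP cleavage and amyloid-beta removal other than App hardly differed. Of 20 members 2 were higher and 1 lower, Itm2c, described above, the APP homologue Aplp1 at 0.17 (limma adjusted p = 0.227) and Lrp1, an endocytic receptor of apolipoprotein E and amyloid-beta, at -0.25 (limma adjusted p = 0.174). Lrp1 was 409, 466 and 636 CPM against 479, 583 and 630 CPM, with 9 of 14 transgenic mice below the lowest E3/Trem2ko mouse. The median of the list was -0.01, equal to that of all genes.

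Neuronal, oligodendrocyte and housekeeping lists were close to the background. Of 26 synaptic protein genes 1 was higher and 0 lower (median 0.01), and of 15 oligodendrocyte genes 0 were past an unadjusted p of 0.05 in limma (median 0.06). Of 75 subunits of oxidative phosphorylation 2 were higher and 1 lower (median 0.05), of 75 mitochondrial ribosomal proteins 5 and 0 (median 0.05), of 75 cytosolic ribosomal proteins 1 and 4 (median -0.07), and of 37 proteasome subunits 2 and 1 (median 0.05). Oligodendrocyte genes had 7 of 15 higher at this p in APP/E3 against E3 mice (1.34% of all genes), with a median of 0.43.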

How the data were processed

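RNA of anterior cortex was sequenced in 88 mice, 1 library each, and per the study's methods the authors aligned reads to mm10 and counted them with featureCounts; the gene annotation, the filter on genes and the use of strand are not given in the sources used here. The deposited table holds CPM that the authors computed from gene counts. Of its 14497 entries 46 were identical repeats and were removed, leaving 14451 genes. All values of the 88 libraries were whole multiples of 1 read within 0.05 of a read, so whole reads were recovered for the count tests.

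Groups were taken from genotype labels, and no animal number pairs them. Genes whose mean reached 1 CPM (14086) were fitted as log2(CPM + 0.5) with limma 3.58.1 (R 4.3.3; trend and robust moderation) on 8 genotypes and sex over all 88 mice. P-values were adjusted by Benjamini-Hochberg over all genes and called under 0.05. A fold change on this scale understates the change of low genes. Sex differences were fitted in genotype by sex groups. Marker sums were compared with exact permutation tests, and correlations with 100000 permutations (Python 3.11.15, numpy 2.4.6, pandas 2.3.3, scipy 1.17.1). The scripts were tested on simulated data.

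The alternatives were pseudocounts of 0.1 and 1, no filter on low values, TMM scaling, the 22 mice or the genotypes compared alone, no sex term, 2 surrogate variables (sva 3.50.0), a striatal marker covariate, edgeR 4.0.16 and DESeq2 1.42.0 on recovered reads, and leaving out each mouse or the mice with Ttr of at least 100 CPM. Leaving out mice with Drd2 of at least 10 CPM, alone or with the former, and the microglial marker sum were chosen after seeing the data.

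The mice, the 38 gene lists, the rule for named genes and the tests were chosen with earlier results of these data known. Named, apart from some genes not reported here, are every called gene, App, Prnp and Trem2, up to 4 members of each list and genes among the 10 with the smallest p in each of 3 differences, and any others are said to be chosen after their values were seen. Per the study's methods there was a sequencing batch, which is absent from the labels and not in the model, and its part in the differences was not tested. Promoters are from RefSeq (GRCm38.p6), matched by symbol. Positions came from an annotation of the same build, found for 14246 genes. Lengths of annotated exons were available for 13894 genes tested.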

Additional observations from a re-analysis of the deposited data

Results flagged for a closer look

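In 85 values tested for the 8 E3/Trem2ko mice (genes named above and the 3 marker sums), 18 had 1 mouse far from the others, its gap to the next mouse taking more of the group's whole range than Dixon's 95% critical value. Chance flags about 1 in 20 groups, and values of 1 mouse are not independent of each other. E3/Trem2ko replicate 1 was the far mouse in 12 of the 18, and it is also the mouse without which the number of called genes was 91.

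In E3/Trem2ko replicate 1, Farp1 was 121 CPM (group median 101), Slc2a5 7.88 (4.805), Cadm1 378 (292), Cd44 9.35 (1.79), Drd2 3.08 (0.991), Arpp21 531 (336), Hmgcs1 452 (304), Nsdhl 24.99 (16.2), Cx3cr1 79.9 (51.7) and P2ry12 36.0 CPM (22.3), each the highest of the 8 mice. Its summed striatal markers were 185 CPM (median 108) and its summed microglial markers (Tmem119, P2ry12, Cx3cr1 and Csf1r) 257 CPM (median 183).

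In E3/Trem2ko replicate 4, Cd74 was 8.60 CPM (1.66), Perp 5.85 (3.33) and Rasd1 18.6 CPM (6.56), and in E3/Trem2ko replicate 7 Egr2 was 110 CPM (20.1) and Nr4a1 675 CPM (197). In E3/Trem2ko replicate 3, 2210408F21Rik was 9.84 CPM (7.71). The cause of these far values was not tested. The 14 APP/E3/Trem2ko mice were not tested in this way, so the flags do not compare the groups.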

How the results depend on the processing

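The 21 called genes kept their direction in all 13 alternatives and in all 22 refits without 1 mouse, and Prnp, App, Farp1 and Tet2 were called in all 13. The number called (main 10 higher and 11 lower) was 113 and 203 (316) with 2 surrogate variables, 114 and 111 (225) in DESeq2, 23 and 15 (38) in edgeR, 16 and 14 with TMM scaling, 7 and 5 (12) with only the 2 genotypes, 15 and 17 (32) with the striatal covariate, 34 and 34 (68) without the mice high in Ttr, 17 and 17 (34) without those high in Drd2 and 15 and 19 (34) without either. Of the 21 genes, 7 were called with only the 2 genotypes. Without the mice high in Ttr 19 of them were called, without those high in Drd2 15 and without either 13. Without 1 mouse the number called ran from 3 to 91, with 3 to 41 higher and 0 to 52 lower. The cause of these moves was not tested, apart from fewer mice in the last settings.

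The difference of the transgene effect by Trem2 with APOE3 called 1 gene with 2 surrogate variables (Prnp), 1 in DESeq2 (1500015O10Rik), 1 with the striatal covariate (Prnp) and 1 without the mice high in Drd2 (Rec8), and 0 in each refit without 1 mouse. That by APOE in Trem2ko mice called 2 in DESeq2, and 0 to 3 without 1 mouse.

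The correlation of App and Prnp was 0.483 without the 2 farthest mice. The difference in summed choroid plexus markers turned to -12.1 CPM without the mice high in Ttr. That of Ttr turned to -0.90 there and to -0.51 without the mice high in Ttr or Drd2. Ttr is in that sum and set which mice were left out, so these moves follow from that choice. The difference of Drd2 turned to -0.15 with the striatal covariate. Of the other alternatives for single genes, 47 gained and 35 lost a call, and without 1 mouse 26 gained and 145 lost one.

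No paired analysis was possible because the labels carry no replicate numbers shared between groups. Across 13894 genes, which are not independent, the log2 fold change had a Spearman rho of -0.24 with exon length and 0.00281 with GC content. In the 22 mice 1 read was worth 0.0174 to 0.0221 CPM, which limits the precision of genes near 1 CPM.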
